A study of Mus musculus with 4 samples.

Results

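Apolipoproteins are the protein components of lipoprotein particles, and 10 of their genes were followed here in mouse liver 48 h after surgery: Apoa1, Apoa2, Apoa4, Apoa5, Apob, Apoc1, Apoc2, Apoc3, Apoe and Apom. They were taken as all probe sets (groups of array probes for a transcript) whose annotation named exactly 1 of these symbols. That gave 16 probe sets of 45037 on the array, and 10 genes of 18193 with a probe set of their own. Total RNA of mature liver from C57BL/6J mice, an inbred laboratory strain, was read on Affymetrix arrays after biotin labelling. There were 2 arrays of liver taken 48 h after a sham operation, in which no liver is removed, and 2 of liver taken 48 h after partial hepatectomy, a resection after which the remaining liver grows back. The submitters describe each pair as biological duplicates; the labels used here state neither age nor sex, nor whether RNA was pooled from several mice.

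Lipids travel in blood as particles whose surface proteins decide where the fat goes. Apob is the non-exchangeable scaffold of very low density lipoproteins, which the liver secretes with triglyceride; Apoa1 and Apoa2 are the main proteins of high density lipoproteins, and the small C and E proteins move between particles and steer their lipolysis and uptake. The liver makes most of these proteins constantly, so their transcripts are used as marks of hepatocyte identity. Apoa4 differs in that it is made mainly by the small intestine, and in mice also by the liver, where its transcript is known to vary with fasting and with hepatic fat load.

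In these livers Apoa4 stood 6.13-fold higher after hepatectomy and Apoc2, the cofactor of lipoprotein lipase, stood 1.46-fold higher, while none of the other 8 passed the test. Of the 10 genes 2 were called higher and 0 lower. Among all 12560 tested genes 3.57% were called higher and 1.09% lower, and 4.67% in either direction. A gene was called at an adjusted p of 0.05 in a limma model fitted to all 27022 tested probe sets with Benjamini-Hochberg adjustment. At an unadjusted p under 0.05, limma also gave 2 members higher and 0 lower, where 12.5% of all tested genes were higher and 7.47% lower. All 10 genes passed the filter on dim probe sets, and so did all 16 of their probe sets. Fold changes are differences of log2(signal + 8.57), where the added offset is the 20th percentile of all signals.

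The stretches before the starts of the 2 genes that rose are shown because their levels are what the results turn on. They come from RefSeq on the mouse build GRCm38.p6, on the gene's own strand, 5′ to 3′. The first covers chr9:46240594-46240843 on the plus strand and the second chr7:19677942-19678083 on the minus strand, which is shorter because the neighbouring gene Apoc4 lies just before it. Capitals mark matches, on either strand, to any of 5 motifs: TATAAA (the TATA box), AGGTCA (a site of nuclear receptors), CAAAGTCCA (the core bound by HNF4), TGACG (a short site of cAMP response factors) and CCAAT (the CCAAT box).
Apoa4: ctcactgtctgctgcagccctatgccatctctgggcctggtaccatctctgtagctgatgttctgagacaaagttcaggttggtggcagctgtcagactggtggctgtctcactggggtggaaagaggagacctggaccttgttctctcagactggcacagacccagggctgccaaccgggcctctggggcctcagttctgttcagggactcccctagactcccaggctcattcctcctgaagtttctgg
Apoc2: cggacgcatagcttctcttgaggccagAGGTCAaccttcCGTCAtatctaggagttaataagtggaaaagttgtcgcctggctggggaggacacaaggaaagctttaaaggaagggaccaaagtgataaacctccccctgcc
The Apoa4 stretch held none of the 5 motifs as spelled, which says only that these exact letters are not in this window. The same stretch holds caaagttca, a near spelling of CAAAGTCCA that was not searched. The Apoc2 stretch held AGGTCA from position -115 to -110 before the start and, on the opposite strand, TGACG from -103 to -99; the 2 matches do not overlap. Over 32851 such stretches of 250 bases in the table, 14.0% held AGGTCA, 17.8% TGACG, 12.4% TATAAA, 33.8% CCAAT and 0.384% CAAAGTCCA. Upstream stretches were found for 8 of the 10 members. Among those that were not called, Apoa5 and Apob each held a TATAAA match in a scanned stretch, and Apoa2 and Apoe did in 1 of theirs. The 2 motifs of the Apoc2 stretch were also found in the stretches of Apoa2, which was not called, though not in the same one. Apoa1 and Apom held none of the 5 motifs.

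Apoa4 had a signal of 1834 and 1822 on the sham arrays and of 11404 and 11111 on the hepatectomy arrays. Both hepatectomy arrays lay far above both sham arrays, and within a group the 2 arrays were close to each other. The mean signal was 1828 ± 8.82 against 11257 ± 207 (SD, n = 2 arrays per group), a ratio of 6.16. On the log2 scale Apoa4 rose by 2.62 ± 0.12 (SE; limma adjusted p = 0.000218), with a 95% interval from 2.34 to 2.89. A second probe set for Apoa4 gave 1713 and 1488 in sham and 11942 and 12014 after hepatectomy, a log2 difference of 2.90 ± 0.13. The 2 probe sets differ in design: the first carries the suffix that marks probes able to match several transcripts, the second does not, and both moved the same way by a similar amount.

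**Figure D1:**
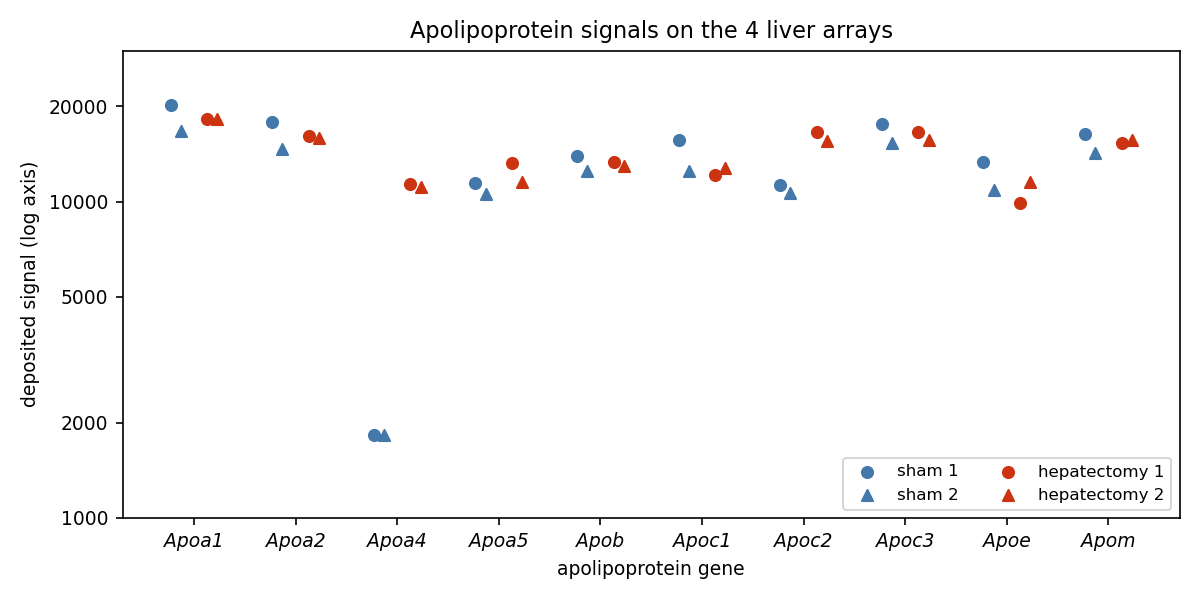
Deposited signal of the probe set with the highest mean log2 value for each of the 10 apolipoprotein genes, on a log axis, with 1 point per array (blue, sham; red, hepatectomy; circles, replicate 1; triangles, replicate 2). Apoa4 moves from 1834 and 1822 to 11404 and 11111, the 2 groups of Apoc2 separate by less, and most other genes overlap.

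Among all genes Apoa4 had the smallest p of the 12560 tested, while its log2 difference ranked at 143 from the top. The genes ahead of it were dimmer in mean log2 signal. They included genes that were not called, such as Hsd3b1 (5.06) and Star (2.92), which were high in hepatectomy replicate 1 alone. Of 1135 tested genes at least as bright as Apoa4, 39 were called and none other had a difference as large; the next was Thrsp, a gene of lipogenic tissues, which fell by 2.49. This brightness range was chosen after the values were seen. Without hepatectomy replicate 1, whose adrenal and fat transcripts are given further on, Apoa4 had a log2 difference of 2.60. That fit had 1 hepatectomy array, so its residual spread came from the sham pair alone and no p is given.

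**Figure D2:**
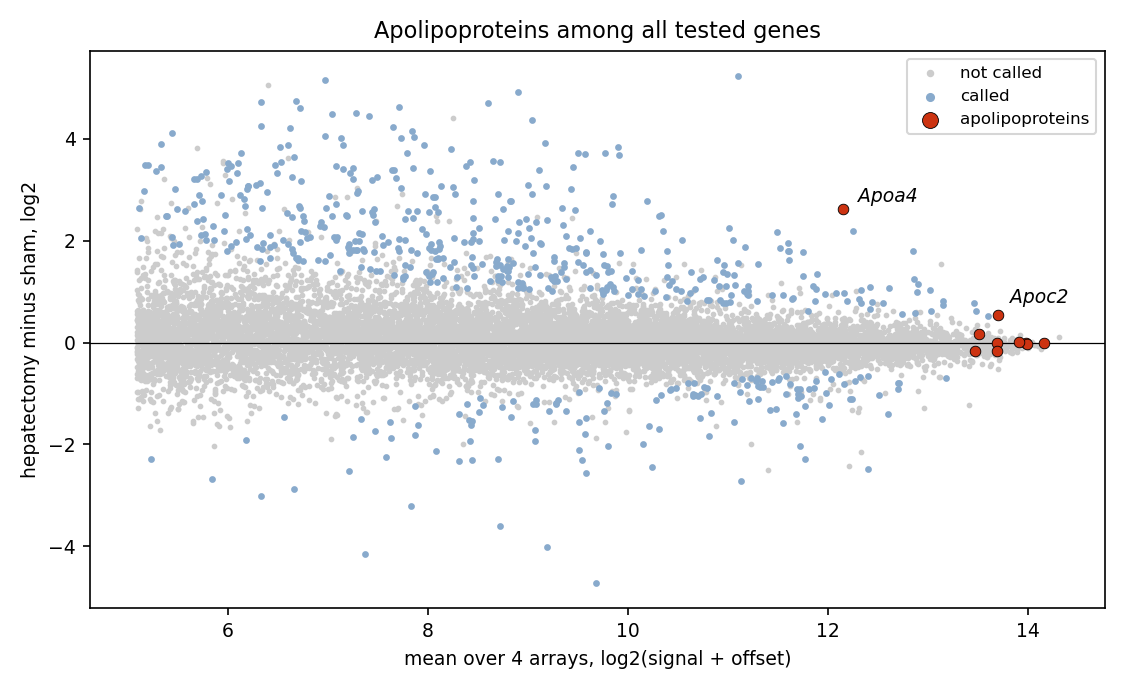
Log2 difference between hepatectomy and sham against the mean log2 signal over the 4 arrays for all 12560 tested genes (grey, not called; light blue, called; red, apolipoproteins). Apoa4 at 2.62 stands above every gene of equal or higher brightness, and the other apolipoproteins lie at the bright end near 0 with Apoc2 at 0.55.

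Of the members that act on lipoprotein lipase, the enzyme that hydrolyses triglyceride in the capillaries, Apoc2 was the 1 called. Apoc2, which activates the enzyme, had a signal of 11265 and 10677 in sham liver and of 16579 and 15521 after hepatectomy. Its groups did not overlap, and it rose by 0.55 ± 0.10 on the log2 scale (SE; limma adjusted p = 0.0253; 95% interval 0.32 to 0.78). Among 251 genes in the brightest 2%, Apoc2 was 1 of 4 called, with the acute phase gene Saa1, the keratin Krt18 and the lactate dehydrogenase subunit Ldha. The call of Apoc2 was close to the threshold: it was held under 9 of 14 alternative settings, and lost when hepatectomy replicate 1 was left out (0.50, adjusted p = 0.12) or when sham replicate 2 was (0.51, adjusted p = 0.0627). Median centring of the arrays also ended it (0.46, adjusted p = 0.191), as did no filter on dim probe sets (adjusted p = 0.135) and no mean-variance trend (adjusted p = 0.277).

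Apoc3, which slows lipolysis and the clearance of remnants, had signals of 17629 and 15271 in sham and of 16598 and 15622 after hepatectomy. The groups overlapped, and the log2 difference was -0.03 ± 0.11 (limma adjusted p = 0.936). Apoa5, which promotes lipolysis, had 11477 and 10597 in sham against 13217 and 11526. Both hepatectomy arrays were higher, the second by a small margin, and the difference of 0.16 ± 0.11 was not called (limma adjusted p = 0.538). Apoc1, which hinders the uptake of remnant particles, had 15686 and 12537 in sham against 12096 and 12818. Sham replicate 1 stood alone at the top, and the difference was -0.17 ± 0.13 (limma adjusted p = 0.567). Groups that did not overlap, with hepatectomy higher, were seen for 3 of the 10 members (Apoa4, Apoa5 and Apoc2), near the 28.1% of all tested genes with that order; for the reverse order the count was 0, against 23.2% of all tested genes (51.3% for both orders together).

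For the scaffold Apob, the brighter probe set gave 13955 and 12477 in sham and 13356 and 12956 after hepatectomy. The hepatectomy values fell between the sham values, and the log2 difference was -0.0045 ± 0.10 (limma adjusted p = 0.99). A dimmer Apob probe set gave 4157 and 5096 in sham against 4278 and 4446, with a difference of -0.08 ± 0.14. Here sham replicate 2 was the higher of the sham pair, the reverse of the first probe set.

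Apoa1, Apoa2 and Apom, which are carried mainly on high density lipoprotein, were not called. Apoa1, which takes up cholesterol from cells and activates the esterifying enzyme Lcat, had 20224 and 16664 in sham and 18237 and 18212 after hepatectomy, with a log2 difference of -0.01 ± 0.11 (limma adjusted p = 0.98). The 3 other Apoa1 probe sets gave differences of -0.01, -0.03 and -0.01. Apoa2 had 17877 and 14680.2 in sham against 16133 and 15942, a difference of -0.01 ± 0.11. Apom, a lipocalin that carries sphingosine 1-phosphate on these particles, had 16354 and 14296 in sham against 15274 and 15618. Its difference was 0.01 ± 0.10 in that probe set and -0.01 ± 0.10 in another. For these 3 genes both hepatectomy values of the probe set given first lay between the 2 sham values. In the other Apom probe set hepatectomy replicate 1, at 12059, lay below both sham values of 13121 and 12083.

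Apoe, the ligand through which remnants are taken up by receptors of the LDL receptor family, had 13351 and 10868 in sham and 9925 and 11563 after hepatectomy. The groups overlapped, and the difference was -0.17 ± 0.13 (limma adjusted p = 0.603). Apoe is also made by macrophages. Of 8 macrophage markers 1 was called higher and 1 lower, against 3.57% and 1.09% of all tested genes. The scavenger receptor Marco was higher (3.45 ± 0.32, limma adjusted p = 0.00145) and the receptor Csf1r lower (-0.70 ± 0.13, limma adjusted p = 0.0317). At an unadjusted limma p under 0.05, 2 of the 8 were higher and 2 lower, against 12.5% and 7.47% of all tested genes. The call of Csf1r was lost without either sham replicate (adjusted p = 0.217 and 0.14) and without hepatectomy replicate 1 (0.0609), and also with no filter (0.0854), no mean-variance trend (0.206) and median centring (0.0622). The summed signal of these 8 markers was 18269 and 18901 in sham and 19548 and 18818 after hepatectomy. In whole tissue, fewer cells of a type and less RNA per cell cannot be told apart.

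**Figure D3:**
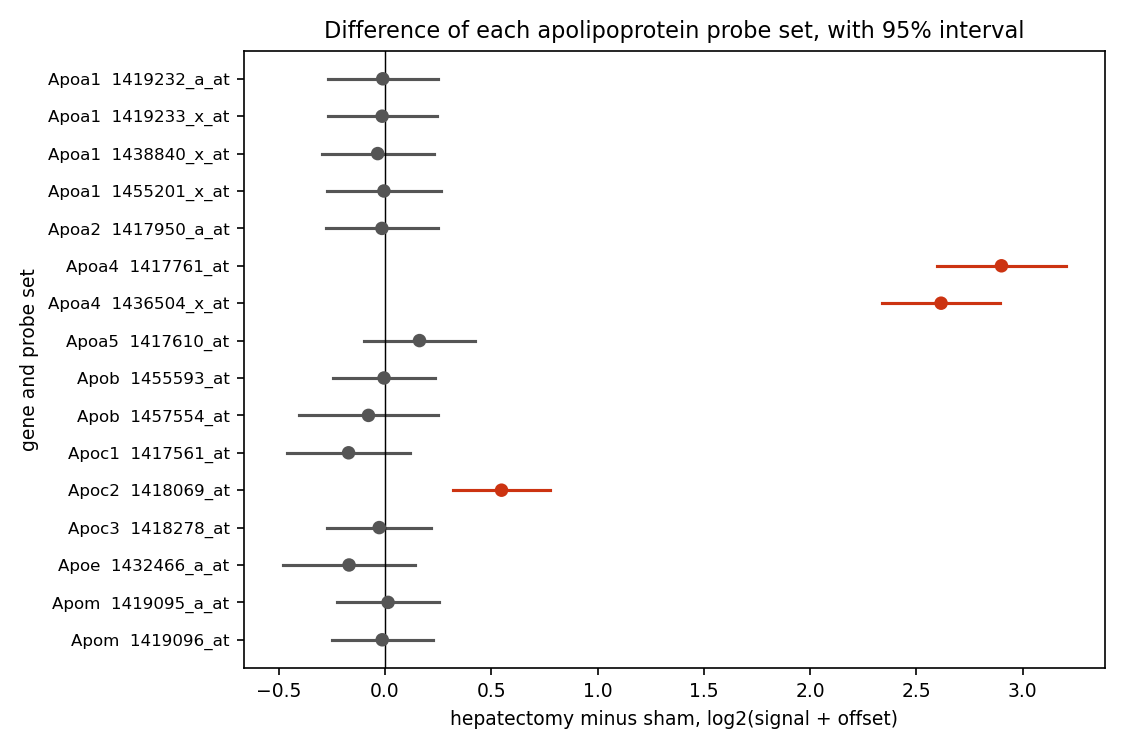
Hepatectomy minus sham difference on the log2(signal + offset) scale for each of the 16 apolipoprotein probe sets (points) with the 95% interval from limma (lines); red marks called probe sets. Both Apoa4 probe sets (2.90 and 2.62) and the Apoc2 probe set (0.55) lie above 0, and the intervals of the other 13 include 0.

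The contrast between Apoa4 and the other members was large against the spread of the arrays. In each array the log2 value of Apoa4 minus the mean of the other 9 was -3.03 and -2.82 in sham and -0.33 and -0.36 after hepatectomy. Since probe sets differ in brightness, only the change of this value between groups can be read. The 2 groups differed by 2.58, against a pooled SD of 0.10 between arrays of a group. With 2 arrays against 2, an exact two-sided permutation test cannot go below the p = 0.333 that it gave, so this value rests on its size. The log2 differences of the other 9 ran from -0.17 to 0.55 with a median of -0.01; 3 were above 0 and 6 below. The lower 95% bound of Apoa4, 2.34, lay above the upper bound of every other member, of which that of Apoc2 was highest at 0.78. For the 8 members that were not called, the 95% intervals ran from a fold of 0.718 (Apoe) to 1.34 (Apoa5). Each gene's own interval was narrower than that range, such as 0.845 to 1.18 for Apob. Changes inside a gene's own interval were not excluded for that gene. The smallest change that these arrays could call was not tested.

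Part of the spread was shared by the members. Sham replicate 1 was above sham replicate 2 in all 10 genes by the probe sets that stand for them, with a median log2 difference between the 2 arrays of 0.20 in size. The same order held in 94.4% of the 251 genes in the brightest 2% and in 45.9% of all tested genes. The probe sets that stand for the members lay between percentiles 97.8 and 99.99 of mean signal, and the signal of Apoa1 on sham replicate 1 was 20224 where the brightest probe set of that array gave 21402. Among the brightest 2% the median absolute log2 difference between the groups was 0.09, against 0.25 over all tested genes, and 1.59% were called. The values carry no saturation flags, and the part of signal compression in the small differences of bright genes was not tested. Every array had been scaled to a common trimmed mean before deposit, so the values are relative to total signal and not amounts per cell or per liver.

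Several members are neighbours in the genome. In RefSeq order on chromosome 9 the run is Apoa1, Apoc3, Apoa4 and Apoa5, followed by Zpr1 and Bud13. Around Apoa4 (2.62) the log2 differences were -0.03 for Apoc3 and 0.16 for Apoa5, and those of the flanking genes Zpr1 and Bud13 were -0.18 ± 0.16 and -0.23 ± 0.29. Of that run Apoa4 was the 1 gene called. On chromosome 7 the run is Apoc2, Apoc4, Apoc1 and Apoe. Next to Apoc2 (0.55) the gene Apoc4 had a difference of -0.00038 ± 0.10, with 12988 and 11695 in sham against 12477 and 12168. A predicted gene model, Gm44805, spans Apoc2 and Apoc4, and a probe set of Apoc2 may not tell its transcript from that of Apoc2. Apoa2, Apob and Apom lie on chromosomes 1, 12 and 17, and the gene model of Apoa2 overlaps that of Tomm40l.

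The genes whose 4 values, taken relative to the sham mean, lay nearest to those of Apoa4 were Ncaph, Ccnb2, Mms22l, Gadd45b and Id1. Nearness was the Euclidean distance on the log2 scale over the 4 arrays, and ran from 0.13 for Ncaph, a condensin subunit, to 0.24 for Id1, an inhibitor of basic helix-loop-helix factors. Their log2 differences were between 2.51 (Ccnb2, a mitotic cyclin) and 2.79 (Id1). Their sham signals were from 42.2 ± 4.12 for Ncaph to 164 ± 1.60 for Id1. At such signals the log2 differences varied with the added offset. With an offset of 50 they were 1.96 for Ncaph, 1.93 for Ccnb2, 2.05 for Mms22l, 2.19 for Gadd45b and 2.52 for Id1. Apoa4 was 2.59 at that offset. With an offset of 1 they ran from 2.66 (Gadd45b) to 2.91 (Mms22l), and Apoa4 was 2.62. Whether these genes stay nearest to Apoa4 at another offset was not tested.

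Other genes of lipoprotein metabolism were read from lists chosen with earlier results of these data known, and each count stands beside the 3.57% of all tested genes called higher and 1.09% called lower. The median over all tested genes was 0.02. Of 13 tested genes listed as other apolipoproteins and lipoprotein components 2 were called higher and 0 lower, with a median of 0.04. At an unadjusted limma p under 0.05, 4 were higher and 0 lower, against 12.5% and 7.47% of all tested genes. The 2 called were serum amyloid A genes, whose products bind high density lipoprotein in the acute phase. Saa2 went from 4256 and 3703 in sham to 14846 and 12731 after hepatectomy, a rise of 1.79 ± 0.13 (limma adjusted p = 0.000722). Saa1 went from 9448 and 7828 to 15374 and 14181, a rise of 0.78 ± 0.12 (limma adjusted p = 0.0144). When probe sets with the suffixes _x_at, _s_at and _a_at were dropped, another Saa1 probe set stood for the gene and gave 1.36. With probe sets averaged per gene, Saa1 rose by 1.07. The call of Saa1 was lost with no filter (adjusted p = 0.09) and with no mean-variance trend (0.208). Saa1 and Saa2 are near-identical copies, so a probe set of one may read the other. Saa4, the constitutive member, had a difference of 0.02 ± 0.11. Saa3 had 1189 and 1451 in sham against 8919 and 1596, so that hepatectomy replicate 1 alone was high, and it was not called (1.52 ± 0.64, adjusted p = 0.285).

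Of 14 tested genes of particle assembly and secretion 1 was called higher and 0 lower, with a median of -0.08. It was Tm6sf2, whose product loads lipid onto very low density lipoprotein, with 509 and 512 in sham and 1355 and 1219 (1.32 ± 0.18, limma adjusted p = 0.00815). That call was lost without sham replicate 1 (1.31, adjusted p = 0.0758) and without the other sham array (1.32, adjusted p = 0.0589), and with no mean-variance trend (adjusted p = 0.0712). Mttp, the transfer protein that lipidates Apob, had 5306 and 5336 against 5079 and 5097, a difference of -0.06 ± 0.12. By limma, 0 genes were called in either direction among 4 that edit the Apob transcript, 8 of high density lipoprotein formation, 8 of triglyceride lipolysis and 7 receptors and their regulators. Their medians were -0.22, 0.08, 0.14 and 0.07. At an unadjusted limma p under 0.05, 12.5% of all tested genes were higher and 7.47% lower. There 2 of the editing genes were lower, 1 lipoprotein formation gene was higher and 1 lower, and 1 lipolysis gene was higher and 2 lower. In the list of receptors and their regulators 1 gene was lower, the regulator Mylip (-0.76 ± 0.26), and no tested receptor passed. In the assembly list 1 was higher and 2 lower at that threshold. In the lipolysis list Angptl8 had 1156 and 1263 in sham against 1188 and 2980, so that hepatectomy replicate 2 alone was high. Its difference was 0.64 ± 0.36 (limma adjusted p = 0.445), and 1.30 without hepatectomy replicate 1. Lpl itself had 1020.4 and 1955 in sham against 2776 and 1978, with sham replicate 1 lowest and hepatectomy replicate 1 highest. The Lpl difference was 0.73 ± 0.30 (limma adjusted p = 0.279), and 0.48 without hepatectomy replicate 1.

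Of 22 tested transcription regulators of apolipoprotein genes 0 were called higher and 2 lower, with a median of -0.09; at an unadjusted p under 0.05, 1 was higher and 6 lower. The 2 were Srebf1 (-1.40 ± 0.20, limma adjusted p = 0.00868) and Mlxipl, the glucose-responsive factor ChREBP (-1.05 ± 0.20, adjusted p = 0.0332). Without sham replicate 2 neither call held (adjusted p = 0.0576 for Srebf1 and 0.163 for Mlxipl), and that of Mlxipl was also lost without sham replicate 1 (0.111). With no filter (adjusted p = 0.0533 and 0.131) and with no mean-variance trend (0.123 and 0.206) neither was called, nor was Mlxipl with probe sets averaged per gene (0.0505). Hnf4a, the nuclear receptor on which many apolipoprotein genes depend, had 12608 and 11720 in sham against 11559 and 10740.4, a difference of -0.13 ± 0.10. Creb3l3, a factor known to activate Apoa4 in mouse liver, had 4185 and 4338 against 5066 and 4332, a difference of 0.14 ± 0.13. Neither was called.

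**Figure D4:**
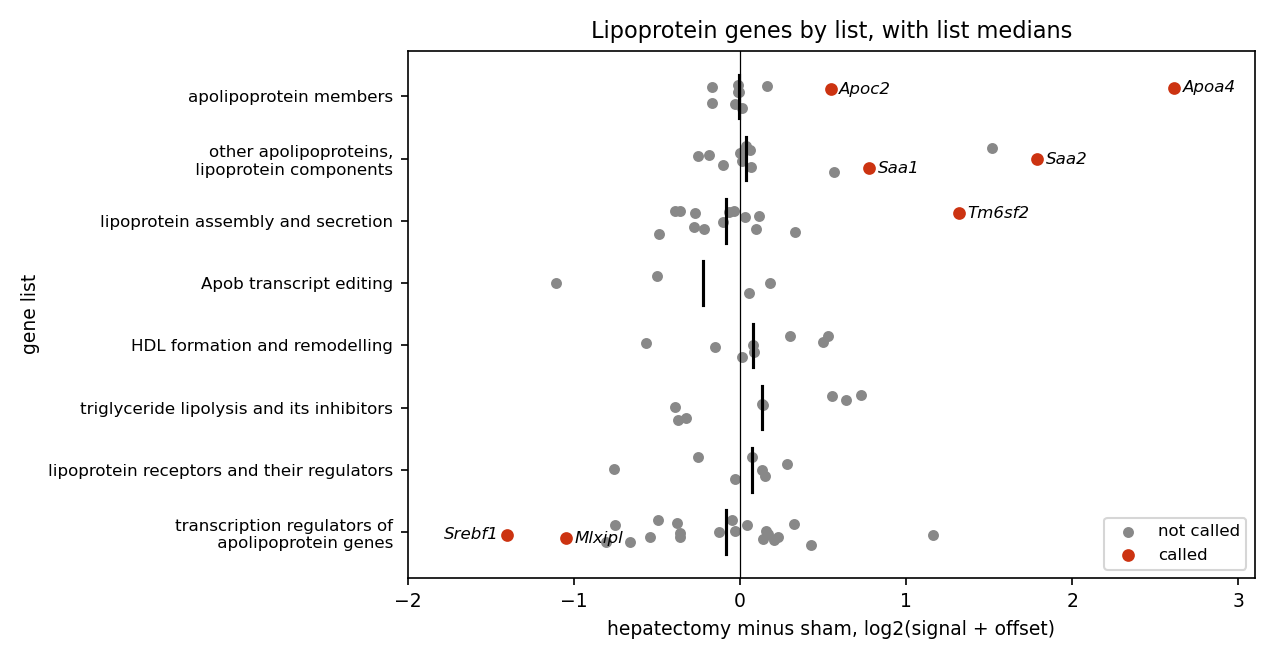
Hepatectomy minus sham difference on the log2(signal + offset) scale for each tested gene of 8 lipoprotein lists (points; height within a row is arbitrary), with called genes in red and named, and the list median as a black bar. Every list median lies between -0.22 and 0.14, and Apoa4 at 2.62 is the rightmost point.

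Markers of other cells were set beside these values. Of all tested genes 3.57% were called higher and 1.09% lower. At an unadjusted limma p under 0.05 the shares were 12.5% and 7.47%. Of 8 tested hepatocyte markers 0 were called by limma, and 0 passed an unadjusted p of 0.05 in either direction; Alb had 17980 and 15095 in sham against 16103 and 14969 (-0.09 ± 0.11). Of 9 enterocyte markers, the other cells known for Apoa4, 8 had a probe set and 2 were bright enough to be tested. Fabp2, the intestinal fatty acid binding protein, was called higher, from 5143 and 5611 to 10340 and 10947 (0.98 ± 0.11, limma adjusted p = 0.00352), and Anpep was not (adjusted p = 0.506). With no mean-variance trend Fabp2 was not called either (adjusted p = 0.127). The 6 others, Vil1, Cdh17, Lct, Alpi, Reg3b and Muc2, had signals of at most 39.8 on every array and fell under the filter. The summed signal of the 8 was 6930 and 7399 in sham and 12214 and 13630 after hepatectomy, nearly all of it from Fabp2 and Anpep.

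Hepatectomy replicate 1 stood apart in markers of adrenal cortex and fat. Summed over 9 adrenal markers the signal was 7416 and 5400.4 in sham, 22887 in hepatectomy replicate 1 and 4081 in replicate 2. Outside replicate 1 nearly all of this was Fdx1, which is also made in other tissues (7171 and 5187 in sham, 3237 and 3850 after hepatectomy). The steroid enzyme Hsd3b1 had 9.16 and 3.50 in sham, 7227 in hepatectomy replicate 1 and 24.4 in replicate 2. By limma 0 of 7 tested adrenal markers were called, with 1 higher and 1 lower at an unadjusted p under 0.05. Summed over 5 fat cell markers it was 1221 and 1331 in sham, 6678 in hepatectomy replicate 1 and 2869 in replicate 2. Of 4 tested fat cell markers 1 was called higher, the fatty acid binding protein Fabp4 (1.53 ± 0.25, limma adjusted p = 0.0157). At an unadjusted limma p under 0.05, 3 of the 4 were higher and 0 lower, against 12.5% and 7.47% of all tested genes. The call of Fabp4 was lost without sham replicate 1 (1.41). It was also lost with no filter (limma adjusted p = 0.0777), no mean-variance trend (0.141) and probe sets averaged per gene (0.0581). When probe sets with the suffixes _x_at, _s_at and _a_at were dropped, another Fabp4 probe set stood for the gene and gave 0.18. Without hepatectomy replicate 1 the Fabp4 difference was 1.15. By limma without that array 1 of the 10 apolipoproteins was called higher and 0 lower, against 3.51% and 1.48% of the 12519 genes tested then; the 1 was Apoa4. Neither labels nor values name a scan or extraction batch, so none could be examined.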

How the data were processed

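Liver RNA was measured on 4 Affymetrix arrays, 2 per group. The deposited values were intensities on a linear scale, 1 signal per probe set, and the submitters' processing notes name GCOS 1.4 as the software; its settings and detection calls are not stated. After trimming 2% of values at each end, all arrays had the same mean signal, so the authors had scaled them; that scaling was kept. Of 45101 probe sets 64 controls were left out; of the rest 34945 had 1 symbol in the platform annotation, 932 several and 9160 none here. Signals became log2(signal + 8.57). Probe sets whose mean log2 value was below 5.09, the 40th percentile, were dropped, and 27022 were tested.

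The comparison used limma 3.58.1 in R 4.3.3 (lmFit, then eBayes allowing a mean-variance trend). Tests were two-sided and Benjamini-Hochberg adjusted over all tested probe sets; residual degrees of freedom were 2 and the prior added 6.02. A gene was represented by its tested probe set with the highest mean. The code was tested on simulated data. The design text calls the arrays biological duplicates without giving the animals per array, so p-values reflect only how these arrays scatter, and their number limits the precision. Members, gene lists, tests and alternatives were chosen with earlier results of these data known. Named genes were the 10 members, at most 4 called genes per list (by adjusted p), the 5 genes nearest to Apoa4, and Hnf4a, Creb3l3, Mttp, Lpl, Saa1 and Alb regardless of result; others were named after their values were seen. Of 142 listed genes those with no probe set of 1 symbol were not analysed here.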

Additional observations from a re-analysis of the deposited data

How the results depend on the processing

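Apoa4 was called higher under all 14 alternatives (log2 difference 2.53 to 2.90, limma adjusted p from 6.98e-09 to 0.0159), and Apoc2 under 9. Apoc2 was not called with no filter or no trend (both 0.55) or with median centring (0.46); leaving out 1 array gave 0.50 to 0.60. In those 3 settings 1 member was called, and leaving out 1 array gave 1 to 2. All called genes numbered 586, but 218 with no filter, 173 with no trend, 1189 with a replicate block and 232 to 1250 with 1 array left out. The contrast of Apoa4 with the other members was 2.73 when probe sets were averaged per gene. It was 2.82 when probe sets with the suffixes _x_at, _s_at and _a_at were dropped (where Apoa1, Apoa2 and Apoe had no value). With 1 array left out it was 2.48 to 2.87. Without sham replicate 2 the other probe set stood for Apoa4; on its usual probe set, an alternative chosen after seeing the data, the contrast was 2.68 and Apoa4 2.61, so the 4 values ran from 2.48 to 2.68. Signs near 0 turned in members that were not called. Under quantile normalization Apoa1 was 0.071, Apoa2 0.036, Apob 0.033 and Apoc3 0.013. Apom was -0.072 with median centring and -0.013 when probe sets with the suffixes _x_at, _s_at and _a_at were dropped. With 1 array left out Apoa1 ran from -0.15 to 0.13, Apoa2 from -0.16 to 0.13, Apob from -0.085 to 0.076, Apoc3 from -0.13 to 0.076 and Apom from -0.082 to 0.11. The causes were not tested. Same-numbered arrays share only a number; the correlation of their deviations was 0.10 over 27022 probe sets, and with the replicate block 2 members were called (Apoa4 2.62, Apoc2 0.55).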
